A study of Mus musculus with 9 samples.

Results

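The constitutive proteasome genes were followed in RNA of the lacrimal gland, which supplies the aqueous tears, from female mice of the strain C57BL/6J. The libraries were 3 at 24 months, 3 at 12 months and 3 at 2 months of age, and the youngest are titled 8W. All mice were fed freely under a light and dark cycle, and the labels give no treatment and no allele. The genes were taken by name, as protein coding genes whose symbol starts with Psma, Psmb, Psmc, Psmd, Psme, Psmf or Psmg and a digit, leaving out the 3 interferon-induced genes Psmb8, Psmb9 and Psmb10. That gave 47 of the 54232 genes counted, of which 44 had enough counts to be tested.

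The proteasome degrades proteins that carry ubiquitin chains. Its core particle is a barrel of stacked rings of alpha and beta subunits, in which 3 of the beta subunits cut peptide bonds, and the regulatory particle caps the barrel. The base of that cap holds a ring of ATPases that unfold the substrate, and the lid removes the ubiquitin. Secretory glands make large amounts of protein, and proteins that misfold in the endoplasmic reticulum are exported and degraded by the proteasome.

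The 47 genes fell into 7 core alpha genes (Psma1 to Psma7), 7 core beta genes (Psmb1 to Psmb7), 9 genes of the base and 8 of the lid, which together are 14 core and 17 regulatory particle genes. A further 3 encode chaperones that assemble the base (Psmd5, Psmd9, Psmd10), 4 encode chaperones that assemble the core (Psmg1 to Psmg4), and 5 encode activators and an inhibitor that dock on the core (Psme1 to Psme4, Psmf1). The naming pattern also admits 4 genes that stand apart. Psma8 is an alpha subunit of the testis, Psmb11 a beta subunit of the thymus, Psme2b a near copy of Psme2, and Psmc3ip a protein of meiotic recombination that is not part of the proteasome. Libraries held 40516863 to 42573877 counts, of which 0.133 to 0.179% fell on the 47 genes.

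Levels are given in CPM, counts scaled to library size, after TMM, a factor that evens out library composition. A gene was called at a Benjamini-Hochberg adjusted p under 0.05 in edgeR's quasi-likelihood test, adjusted over the 14944 tested genes. Markers of other cell types differed with age. Summed markers of macrophages lay at 183 to 263 CPM at 24 months, at 144 to 194 CPM at 12 months and at 38.6 to 66.1 CPM at 2 months. The B cell sum lay at 12.7 to 23.1 CPM at 24 months, 15.5 to 133 CPM at 12 months and 0.311 to 0.352 CPM at 2 months, and the T cell sum at 6.42 to 13.9, 5.32 to 20.5 and 0.587 to 1.02 CPM at those ages. All 5 B cell, all 5 T cell and all 5 macrophage markers were called higher at 24 than at 2 months. Adipocyte markers were called higher in 5 of 5 as well, and plasma cell markers in 3 of 5. The plasma cell sum lay at 915 to 956 CPM at 24 months, 744 to 871 CPM at 12 months and 670 to 839 CPM at 2 months. Of the 6 markers of lacrimal gland epithelium, all present at every age, 1 was called lower (Bhlha15, a transcription factor of secretory cells, log2 fold change -0.47, adjusted p = 0.0127). Summed salivary gland transcripts were highest, at 248.99 to 787 CPM, in 2-month replicate 3, 12-month replicate 2 and 24-month replicate 2, with 65.4 CPM in 2-month replicate 2 and 0.573 to 7.15 CPM in the 5 others, and skeletal muscle transcripts in 12-month replicates 1 and 3. Their part in the differences between ages was not tested beyond leaving out the 3 libraries highest in salivary transcripts, which keeps 2-month replicate 2, or the 2 highest in muscle transcripts. In bulk RNA, fewer cells of a type and less RNA per cell cannot be told apart. Whether each library stands for its own mouse is not said in the labels, so a p-value reflects the spread among the libraries at hand, which may be technical.

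At 24 months against 2 months, 5 of the 7 core beta genes were lower, and no member gene of the alpha rings, the base or the lid passed the test. With library totals in place of TMM, the log2 fold changes were close to 0 in all 5, at -0.030 for Psmb3, -0.0099 for Psmb5, -0.024 for Psmb6, 0.016 for Psmb1 and 0.0076 for Psmb4, and 0 of them passed the test. On that scale the median was 0.0076 for the core beta genes and 0.31 for all tested genes. With TMM these medians were -0.30 and 0.01. Of the 44 tested members 6 were called lower, which are Psmb1, Psmb3, Psmb4, Psmb5, Psmb6 and Psmg3, and 0 higher. Of all tested genes 7.56% were called lower and 9.82% higher. By group, 5 of 7 core beta and 1 of 4 core chaperone genes were called, against 0 of 7 core alpha, 0 of 9 base, 0 of 8 lid, 0 of 3 base chaperone and 0 of 5 activator and inhibitor genes. These groups hold only genes of the naming pattern. Sem1, a lid gene outside it, was called lower (log2 fold change -0.33, adjusted p = 0.0191). The 0 calls of higher members held in DESeq2 and limma voom too. At an unadjusted p under 0.05 stood 12 of the 44 members, where 31.7% of all tested genes did so, with 2 core alpha genes, 1 base gene, 1 lid gene (Psmd14, higher) and 1 activator gene (Psme1, higher) beyond those called and Psmg2.

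These calls were near the threshold. Without 2-month replicate 2, and without any 1 of the 3 libraries at 24 months, 0 of the 6 members were called (adjusted p 0.104 to 0.13 without 2-month replicate 2, and 0.0527 to 0.148 without a 24-month library). Psmg3 alone was called without 2-month replicate 3, and Psmb5 and Psmg3 without 12-month replicate 2, a library that enters the shared fit but not this comparison. Without 12-month replicate 1 Psmb1 and Psmb4 were lost (0.067 and 0.0521), and without 12-month replicate 3 Psmb1 and Psmb3 (0.0747 and 0.0503). Without 2-month replicate 1 the count was 7, with Psmg2 added. DESeq2 and limma voom each called the same 6 members. With library totals as the only scaling, all tested genes had a median log2 fold change of 0.31, against 0.01 with TMM. On that scale 0 members were called lower and 6 higher (Psmc1, Psmd3, Psmd12, Psmd14, Psme1, Psme3). Of the 14944 tested genes 191 were called lower and 2626 higher on that scale. The member median of 0.20 still lay below that of all genes.

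Among the core beta genes, 3 encode the subunits that cut. Psmb5 (ENSMUSG00000022193, chr14:54614119-54618022, minus strand, GRCm38) encodes the chymotrypsin-like subunit, which cuts after hydrophobic residues. It had 25.1, 25.2 and 24.1 CPM in the 24-month glands, against 30.0, 32.4 and 29.9 CPM in the 2-month glands. Every old library lay below every young one, with a log2 fold change of -0.31 ± 0.09 (SE; adjusted p = 0.0291). The 12-month glands had 22.8, 21.8 and 25.6 CPM, also below every 2-month library.

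Psmb6 (ENSMUSG00000018286, chr11:70525367-70527858, plus strand) encodes the caspase-like subunit, which cuts after acidic residues. It had 45.8, 48.5 and 48.6 CPM at 24 months and 53.5, 65 and 62.1 CPM at 2 months. The ranges did not overlap, and 2-month replicate 1 was the lowest of the young libraries. The log2 fold change was -0.34 ± 0.10 (SE; adjusted p = 0.0368). At 12 months Psmb6 had 47.1, 47.1 and 54.6 CPM, where replicate 3 reached into the range of the young glands.

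Psmb7 (ENSMUSG00000026750, chr2:38588036-38644087, minus strand) encodes the trypsin-like subunit, which cuts after basic residues. It had 21.6, 21.6 and 22.8 CPM at 24 months, 21.9, 19.8 and 19.6 CPM at 12 months and 23, 20.5 and 20.0 CPM at 2 months. The 3 ages overlapped, and the log2 fold change for 24 against 2 months was 0.05 ± 0.09 (SE; adjusted p = 0.732). The difference between Psmb7 and the other catalytic genes was not itself tested. The exons of Psmb7 share 405 of their 3421 bases with Nek6 on the opposite strand, a kinase gene at 7.21 CPM, and whether the counting used the strand is not stated in the sources used here.

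The 4 other core beta genes encode structural subunits that do not cut. Psmb1 (ENSMUSG00000014769, chr17:15475021-15499751, minus strand) had 81.2, 81.5 and 76.8 CPM at 24 months and 92, 100.1 and 100.1 CPM at 2 months. All old libraries were below all young ones, with a log2 fold change of -0.29 ± 0.09 (SE; adjusted p = 0.0487). Psmb4 (ENSMUSG00000005779, chr3:94884093-94886961, minus strand) had 40.3, 43.3 and 43 CPM at 24 months and 49.3, 55.3 and 51.6 CPM at 2 months. Its ranges were apart too, at a log2 fold change of -0.30 ± 0.09 (SE; adjusted p = 0.0386). Psmb3 (ENSMUSG00000069744, chr11:97703399-97713500, plus strand) had 30.8, 31.9 and 32.5 CPM at 24 months and 34.3, 44.5 and 42.3 CPM at 2 months. The old libraries lay close together, the young ones were spread with replicate 1 lowest, and the log2 fold change was -0.35 ± 0.10 (SE; adjusted p = 0.0325). Psmb2 had 34.6, 37.4 and 34.3 CPM at 24 months and 35.7, 39.6 and 37 CPM at 2 months, with overlapping ranges and a log2 fold change of -0.08 ± 0.08 (SE; adjusted p = 0.556).

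**Figure D1:**
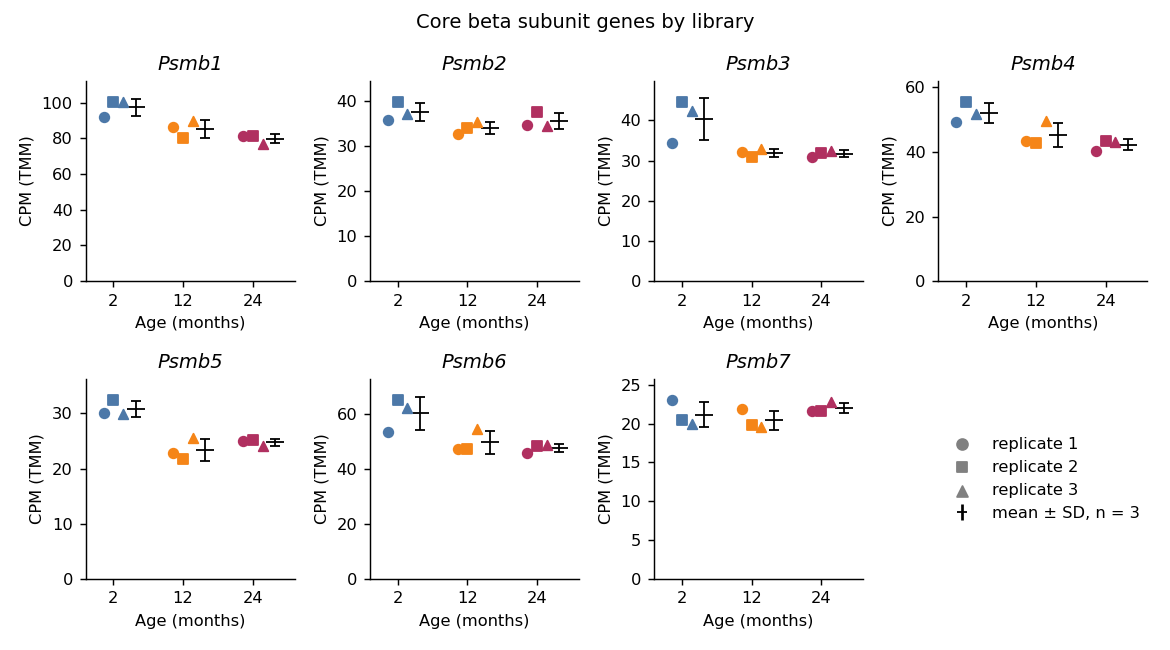
CPM (TMM scaling, vertical axis from 0) of the 7 core beta genes in each library at 2, 12 and 24 months; circles, squares and triangles are replicates 1, 2 and 3, and bars are the mean ± SD of 3 libraries. Psmb1, Psmb3, Psmb4, Psmb5 and Psmb6 lie lower at 24 than at 2 months without overlap, while Psmb7 lies at 19.6 to 23 CPM at all ages. With library totals as the scale the log2 fold changes of those 5 lower genes lie between -0.030 and 0.016. The median of all tested genes on that scale is 0.31.

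Proteasome genes are known targets of Nfe2l1, a transcription factor that is activated when the proteasome is impaired and binds antioxidant response elements together with small Maf proteins. The promoter windows of Psmb3, Psmb5 and Psmb6, all called lower at 24 months, and of Psmc1 and Psmd12, whose log2 fold changes were above 0, are shown for comparison. The window of Psmb4, also called lower, held neither of the 2 motifs marked here. Psmc1 and Psmd12 are not the only regulatory particle genes above 0, of which there were 4. Psmd14, the highest at 0.28, held neither motif in its window, and Psmd3, at 0.05, had no window. Each window runs from 250 bases before to 50 bases after the RefSeq start in GRCm38.p6. Capitals mark matches to the core of that element, TGACNNNGC or TGAGNNNGC, and to CCGGAAG, the letters ETS factors bind, both searched on both strands.
Psmb3, chr11:97703184-97703483, plus strand: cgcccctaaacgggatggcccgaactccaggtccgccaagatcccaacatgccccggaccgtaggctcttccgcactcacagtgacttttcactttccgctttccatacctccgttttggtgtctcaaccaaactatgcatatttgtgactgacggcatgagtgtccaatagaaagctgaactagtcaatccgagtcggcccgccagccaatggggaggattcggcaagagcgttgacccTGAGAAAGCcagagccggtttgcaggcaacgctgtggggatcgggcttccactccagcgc
Psmb5, chr14:54617946-54618245, minus strand: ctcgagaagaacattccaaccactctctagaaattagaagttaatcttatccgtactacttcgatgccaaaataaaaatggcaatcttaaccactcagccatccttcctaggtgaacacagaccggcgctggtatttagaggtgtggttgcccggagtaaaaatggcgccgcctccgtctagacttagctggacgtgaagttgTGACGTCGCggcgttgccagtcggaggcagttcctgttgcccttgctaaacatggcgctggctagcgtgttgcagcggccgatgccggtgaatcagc
Psmb6, chr11:70525107-70525406, plus strand: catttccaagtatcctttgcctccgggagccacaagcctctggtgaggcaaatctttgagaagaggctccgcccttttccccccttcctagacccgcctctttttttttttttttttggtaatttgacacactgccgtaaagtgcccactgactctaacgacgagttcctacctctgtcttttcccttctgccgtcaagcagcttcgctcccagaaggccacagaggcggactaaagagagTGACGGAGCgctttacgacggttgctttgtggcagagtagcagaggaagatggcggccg
Psmc1, chr12:100109952-100110251, plus strand: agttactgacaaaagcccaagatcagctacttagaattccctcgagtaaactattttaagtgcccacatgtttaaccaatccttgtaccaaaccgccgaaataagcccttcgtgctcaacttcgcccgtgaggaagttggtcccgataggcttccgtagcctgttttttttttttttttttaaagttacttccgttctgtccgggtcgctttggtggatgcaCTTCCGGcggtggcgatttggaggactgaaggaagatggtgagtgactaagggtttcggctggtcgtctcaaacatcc
Psmd12, chr11:107479278-107479577, plus strand: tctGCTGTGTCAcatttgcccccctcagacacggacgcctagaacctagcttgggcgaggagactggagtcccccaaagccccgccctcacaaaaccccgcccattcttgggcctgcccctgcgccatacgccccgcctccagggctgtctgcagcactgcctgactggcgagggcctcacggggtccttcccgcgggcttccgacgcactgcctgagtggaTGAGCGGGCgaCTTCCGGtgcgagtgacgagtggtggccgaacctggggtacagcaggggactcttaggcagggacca

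The first base of the antioxidant element core lies at -10 from the start in Psmb3, at -47 in Psmb5 and at -9 in Psmb6. Psmc1 has the ETS letters on the minus strand at -28, and Psmd12 has the element core at -28 and, on the minus strand, at -247, with the ETS letters on the minus strand at -17. No match overlapped another in these 5 windows. RefSeq windows matched 39 of the 47 members, with 42 windows. Of the 7 core beta genes 4 had a window. The called Psmb1 and the uncalled Psmb2 and Psmb7 had none, so no uncalled core beta gene could be set beside the called ones. The antioxidant element core was present in 8 of 12 core particle windows (66.7%) and 5 of 15 regulatory particle windows (33.3%), against 27.8% of all 32851 windows and 31% of the 13766 windows of tested genes. Besides the genes shown, it was present in Psma4, Psma5, Psma6, Psma7, Psmc2, Psmc6, Psmd1 and Psmd13. None of these was called at 24 against 2 months. CCGGAAG was present in 1 of 12 core windows (8.33%) and 10 of 15 regulatory windows (66.7%), against 8.86% of all windows and 16.3% of those of tested genes. Among subunit genes not shown, it was present in Psma6, Psmc2, Psmc6, Psmd2, Psmd4, Psmd6, Psmd11 and Psmd13. Their log2 fold changes for 24 against 2 months were all below 0, from -0.25 in Psmd4 to -0.02 in Psmc2, and none was called. CCAAT, the letters of the factor NF-Y, was present in 6 of 12 core windows and 4 of 15 regulatory windows (26.7%), against 37.4% of all windows. The log2 fold changes for 24 against 2 months were -0.35 in Psmb3, -0.31 in Psmb5, -0.34 in Psmb6, 0.08 in Psmc1 and 0.16 in Psmd12. The matches are of letters only.

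At 12 against 2 months 1 of the 44 members was called lower, a share near that of all tested genes. This was Psmb5, at a log2 fold change of -0.40 ± 0.09 (SE; adjusted p = 0.0173), and 0 members were called higher, where 2.52% of all tested genes were called lower and 5.41% higher, 7.93% in either direction. The adjusted p of Psmb5 was 0.0736 without 2-month replicate 2, 0.0625 without 12-month replicate 1 and 0.0944 without 12-month replicate 2, and the count was 2 without 2-month replicate 1 (Psmb3 added) or 12-month replicate 3 (Psma7 added). DESeq2 called 4 members lower (Psma7, Psmb3, Psmb5, Psmc3) and limma voom 3 (Psma7, Psmb3, Psmb5). Of the 44 members 37 had a log2 fold change below 0, against 49.2% of all tested genes, with a median of -0.15. The 12-month range lay below the 2-month range for 15 members, where 12.4% of all genes did so, and above it for 0, where 15.1% did. Those 15 were spread over the particle, with 2 core alpha, 4 core beta, 3 base and 4 lid genes among them, and 12 members had an unadjusted p under 0.05, where 23.2% of all tested genes had one. With library totals alone 5 of the 44 were below 0, and the median of the members was 0.16 and that of all genes 0.31.

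Between 24 and 12 months 0 members were called in either direction, with 4 of 44 at an unadjusted p under 0.05, where 18.9% of all tested genes stood; all tested genes were called higher in 2.79% and lower in 1.60%, 4.39% in either direction. DESeq2 called Psmd3 higher and limma voom called 0. Psmd3, a lid subunit, had 57.9, 55.5 and 51.7 CPM at 24 months and 45.4, 43.3 and 48.6 CPM at 12 months. Every 24-month library was above every 12-month one, and the 24-month levels overlapped those at 2 months, 54, 53.2 and 52.2 CPM. The log2 fold change for 24 against 12 months was 0.27 ± 0.09 (SE; adjusted p = 0.103), the smallest adjusted p of the members. Of the 17 regulatory particle genes 15 had a log2 fold change above 0 in this comparison, with a median of 0.07 (52.3% of all tested genes were below 0), while the core genes stood at 7 of 14 with a median of 0.01. The 24-month range lay above the 12-month range for Psmc2, Psmc3, Psmd3 and Psme2, where 12.1% of all genes did so, and below it for Psmg3 and Psmc3ip, where 12.6% did. The comparisons of 12 and of 24 months with 2 months share the same young libraries. Over the 3 ages together Psmb3 (adjusted p = 0.0390) and Psmb5 (0.0168) were called, where 17% of all genes were.

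**Figure D2:**
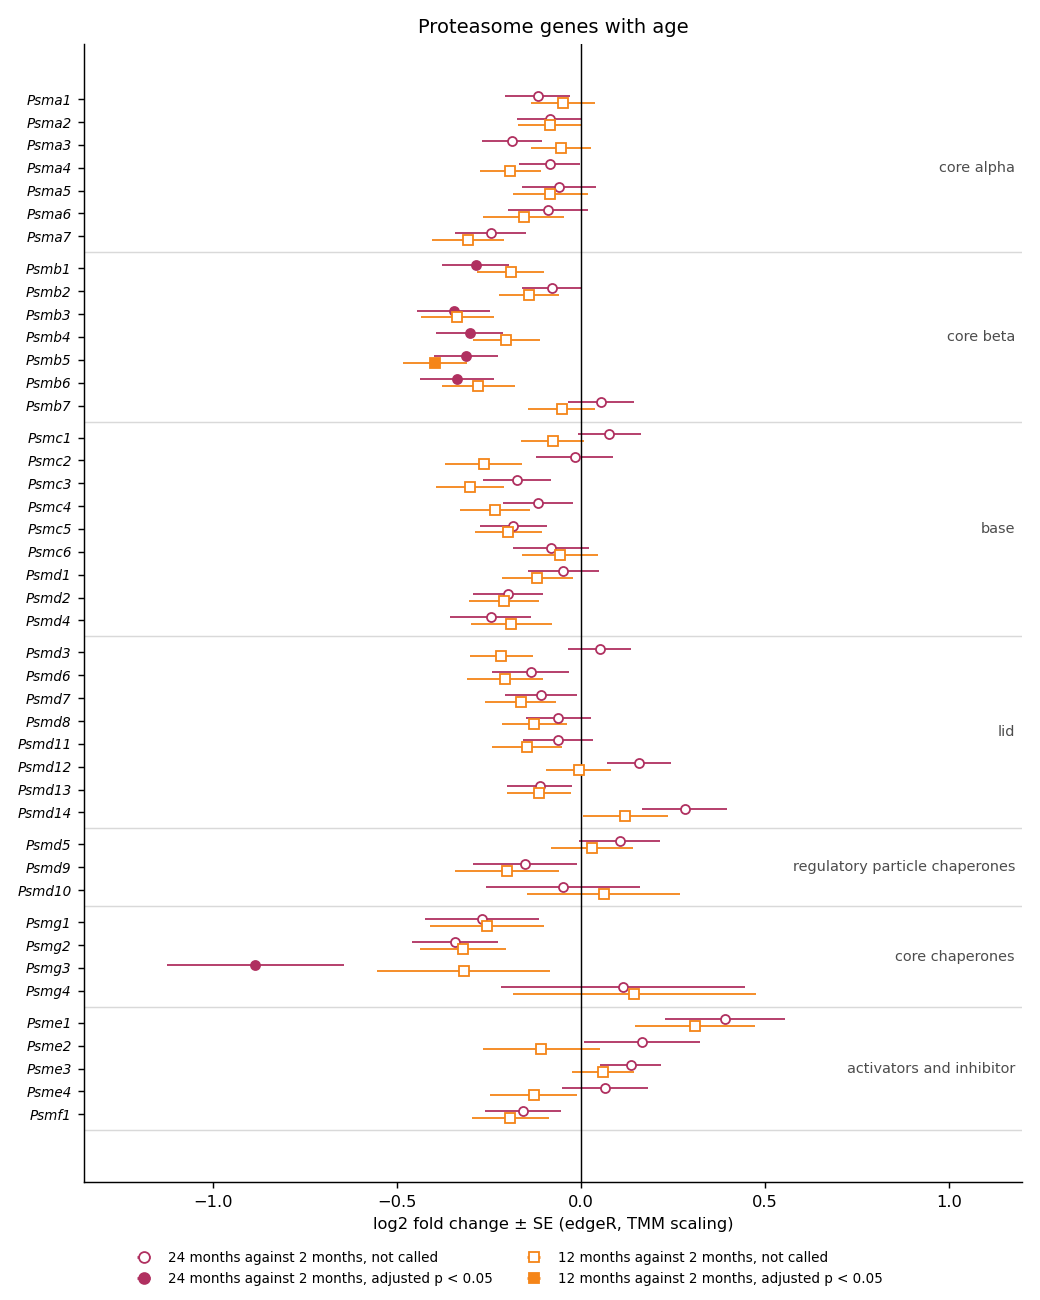
Log2 fold change ± SE (horizontal axis) of 43 members, grouped by their place in the proteasome, for 24 against 2 months (circles) and 12 against 2 months (squares), filled where the adjusted p is under 0.05. Filled circles are 5 core beta genes and Psmg3, and the filled square is Psmb5. With library totals as the scale the 5 core beta genes lie between -0.030 and 0.016 at 24 months. The median of all tested genes on that scale is 0.31.

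The 7 alpha subunits form the outer rings of the core and its gate. They lay between 19.8 and 62.6 CPM over all libraries. For 24 against 2 months their log2 fold changes lay between -0.25 and -0.06 with a median of -0.09, so all 7 were below 0 and 0 were called, while with library totals Psma5 and Psma7 stood at 0.24 and 0.058. Psma7 had 49.3, 53.9 and 51.5 CPM at 24 months, 45.1, 47.3 and 55.9 CPM at 12 months and 62.6, 62 and 58.7 CPM at 2 months. The old and middle-aged libraries were all below the young ones, at a log2 fold change of -0.25 ± 0.10 (SE; adjusted p = 0.105) for 24 and -0.31 ± 0.10 (SE; adjusted p = 0.0766) for 12 against 2 months. Psma5 was at the other end of the group, with 22.8, 22.6 and 20.2 CPM at 24 months and 21.6, 24.9 and 21.9 CPM at 2 months. Its ranges overlapped (log2 fold change -0.06 ± 0.10, SE, adjusted p = 0.739). The ranges of Psma3 and Psma4 at 24 months also lay below those at 2 months.

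The base joins the ATPases Psmc1 to Psmc6 with the scaffold proteins Psmd1 and Psmd2 and the ubiquitin receptor Psmd4. For 24 against 2 months the median log2 fold change of the 9 genes was -0.12, and 0 were called at a smallest adjusted p of 0.148. Psmd4 had the lowest log2 fold change of the base, with 40.8, 45.4 and 39.7 CPM at 24 months and 44.2, 55.1 and 49.9 CPM at 2 months. The ranges overlapped through 2-month replicate 1 and 24-month replicate 2 (log2 fold change -0.25 ± 0.11, SE). Psmc1 had the highest, with 49.5, 47.5 and 45.7 CPM at 24 months and 43.9, 46.4 and 44.9 CPM at 2 months, also overlapping (log2 fold change 0.08 ± 0.09, SE, adjusted p = 0.583). Psmc5 and Psmd2 had ranges at 24 months below those at 2 months. Psmc2 had 70.6, 80.3 and 72 CPM at 2 months, 63.9, 54.2 and 67.4 CPM at 12 months and 76.9, 71.1 and 72.2 CPM at 24 months, so the lowest values were those of the 12-month glands.

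The lid removes ubiquitin chains through the metalloprotease Psmd14, which works as a pair with Psmd7. The median of the 8 lid genes was -0.06 for 24 against 2 months, and 0 were called. Psmd14 had 16.4, 17 and 14 CPM at 24 months and 14.7, 12.5 and 11.7 CPM at 2 months. Only 24-month replicate 3 fell within the range of the young glands, and the log2 fold change was 0.28 ± 0.11 (SE; adjusted p = 0.114). The structural subunit Psmd12 had 49, 46.8 and 45.2 CPM at 24 months and 42.2, 42.2 and 42 CPM at 2 months. All its old libraries lay above the tightly grouped young ones, at a log2 fold change of 0.16 ± 0.09 (SE; adjusted p = 0.242). Psmd6 had the lowest log2 fold change of the lid, -0.14 ± 0.10 (SE; adjusted p = 0.409), with overlapping ranges.

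Over all 44 tested members, 33 had a log2 fold change below 0 for 24 against 2 months, against 49.1% of all tested genes, and the medians were -0.10 for the members and 0.01 for all genes. With library totals 6 of the 44 were below 0. The 24-month range lay below the 2-month range for 13 members, where 16.7% of all genes did so, and above it for Psmd12 and Psme3, where 18.4% did. The 31 subunit genes had a median absolute log2 fold change of 0.12 and a maximum of 0.35, against medians of 0.29 over all tested genes and 0.18 over the 3427 genes of the same level. At 12 against 2 months the 31 genes stood at 0.16 with a maximum of 0.40, and genes of the same level at 0.15.

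The chaperone genes lay at 2.84 to 13 CPM for those of the base and 0.858 to 12 CPM for those of the core. Psmg3 (ENSMUSG00000029551, chr5:139823592-139826885, minus strand), which pairs with Psmg4 and helps to set up the core rings, had 1.89, 1.83 and 1.79 CPM at 24 months, 2.46, 2.47 and 3.23 CPM at 12 months and 2.84, 4.52 and 2.83 CPM at 2 months. The old libraries held 72, 80 and 89 counts and the young ones 114, 154 and 100. Every old library was below every other one, 2-month replicate 2 stood highest, and the log2 fold change for 24 against 2 months was -0.88 ± 0.24 (SE; adjusted p = 0.0262). Without 2-month replicate 2 the adjusted p was 0.12, and without 24-month replicate 1, 2 or 3 it was 0.0527, 0.0669 and 0.0788. Psmg2, which pairs with Psmg1 on the alpha ring, had 8.48, 9.65 and 8.68 CPM at 24 months and 10.04, 12 and 12 CPM at 2 months. These ranges were apart, at a log2 fold change of -0.34 ± 0.12 (SE; adjusted p = 0.0646). Psmg1 stood at a log2 fold change of -0.27 ± 0.15 (SE; adjusted p = 0.262) and Psmg4, at 0.858 to 1.90 CPM, at a log2 fold change of 0.11 ± 0.33 (SE; adjusted p = 0.856). The base chaperones Psmd5 (0.11, adjusted p = 0.557), Psmd9 (-0.15, 0.508) and Psmd10 (-0.05, 0.906) overlapped between the ages.

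Activators dock on the ends of the core in place of the regulatory particle. Psme1 and Psme2 form the PA28 activator that interferon induces, Psme3 its nuclear relative, Psme4 a large nuclear activator, and Psmf1 an inhibitor of the core. Of the 5 genes 4 had a log2 fold change above 0 for 24 against 2 months, with a median of 0.13 and 0 called. Psme1 had 21.9, 18.5 and 30.3 CPM at 24 months, 23.2, 23.8 and 19.9 CPM at 12 months and 16.2, 20.6 and 17.2 CPM at 2 months. The value of 24-month replicate 3 was the highest, and replicate 2 of that age fell within the young range (log2 fold change 0.39 ± 0.16, SE, adjusted p = 0.122). Psme2 had 19.6, 19.7 and 28.4 CPM at 24 months and 16.3, 23.8 and 20.4 CPM at 2 months. For Psme2 only 24-month replicate 3 stood above the young range, while for Psme1 replicate 1 did so too (Psme2 log2 fold change 0.17 ± 0.16, SE, adjusted p = 0.521). That library also had the highest macrophage marker sum, 262.8 CPM, and its part in these values was not tested. Psme3 lay at 51.6, 45.7 and 44.7 CPM at 24 months and 44.4, 42.7 and 42.1 CPM at 2 months, a small shift without overlap (log2 fold change 0.13 ± 0.08, SE, adjusted p = 0.302), and Psmf1 stood at a log2 fold change of -0.16 ± 0.10 (SE; adjusted p = 0.326).

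Of the genes that stand apart, Psma8 was close to absent. It had 11, 9 and 3 counts in the 24-month libraries, 0, 1 and 5 in the 12-month libraries and 0, 0 and 0 in the 2-month libraries. The 23 counts at 24 months were 6.39-fold higher in CPM than a floor of 3 counts over the 2-month group, and the 6 counts at 12 months 1.60-fold higher. The floor allows for counting error at 2 months only. The counts at 12 and 24 months were taken as they stand, so these folds are not lower limits. Psma8 did not pass the filter on low counts. Psmb11 had 3 counts and Psme2b 1 count in all 9 libraries. Psmc3ip held 8, 8 and 8 counts in the oldest glands, 19, 18 and 34 in the 12-month and 24, 10 and 8 in the 2-month glands, where 2-month replicate 1 was the highest of its age. It was not called (24 against 2 months -1.02 ± 0.56, SE, adjusted p = 0.235), and its exons share 385 of 1818 bases with Mlx on the opposite strand, at 10.9 CPM. The 4 Psm pseudogenes had at most 6 counts in a library.

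The balance between core and regulatory particle transcripts was set within each library, so it does not depend on how libraries are scaled. The summed CPM of the 14 core genes over that of the 17 regulatory genes was 0.734, 0.758 and 0.766 in the 24-month, 0.7998, 0.836 and 0.806 in the 12-month and 0.7999, 0.837 and 0.830 in the 2-month libraries. All 3 oldest libraries were below all 6 others, and the 12-month and 2-month libraries overlapped. The mean ratio was 0.753 ± 0.016 at 24 months and 0.822 ± 0.019 at 2 months (SD, n = 3 each), a difference of -0.13 on the log2 scale, and it was 0.814 ± 0.019 at 12 months, a difference of -0.01 from 2 months. Leaving out any 1 library kept the 24 against 2 month difference between -0.15 and -0.11, and a mean over log2 levels, which weighs abundant genes no more than others, gave -0.12. No p is given, since the members were chosen with earlier results known. The lid gene Sem1, outside the naming pattern, is not in these sums or in the shares below. Its mean was 28.2 CPM at 24 months and 35.4 CPM at 2 months.

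Within the particles, the beta share was lower and the lid share higher at 24 than at 2 months. Core beta genes made up 21.4, 22.2 and 22.4% of the subunit CPM in the 24-month, 22.8, 23.6 and 23.5% in the 12-month and 23.1, 24.6 and 24.4% in the 2-month libraries. The 24-month values were below all others. Lid genes made up 25.2, 24.2 and 23% at 24 months and 22.9, 21.8 and 22.3% at 2 months. All old libraries were above the young ones, 24-month replicate 3 by the least. Core alpha genes held 20.9 to 21% at 24 months and 20.9 to 21.3% at 2 months, and base genes overlapped likewise. Psmb5 alone was 1.92, 1.93 and 1.91% of the subunit CPM at 24 months and 2.18, 2.24 and 2.13% at 2 months, with no overlap. At 12 months it was 1.81, 1.86 and 1.95%, which overlapped the 24-month range and lay below the 2-month one. In total the 31 genes took 0.122 to 0.152% of all counts at 24 months, 0.131 to 0.135% at 12 months and 0.116 to 0.132% at 2 months, which overlap. After TMM scaling their sum was 1261 to 1305 CPM at 24 months, 1173 to 1310 CPM at 12 months and 1375 to 1450.0 CPM at 2 months.

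**Figure D3:**
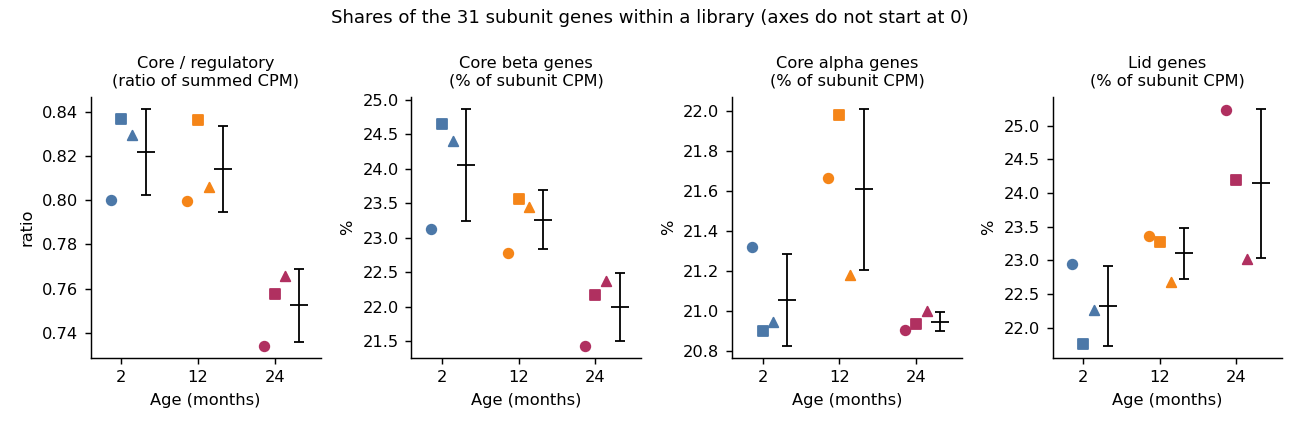
Ratio of summed core to regulatory particle CPM, and shares of core beta, core alpha and lid genes in the CPM of the 31 subunit genes (%), in each library at 2, 12 and 24 months; circles, squares and triangles are replicates 1, 2 and 3, bars are the mean ± SD of 3 libraries, and the axes do not start at 0. The 3 libraries at 24 months have ratios of 0.734 to 0.766, below the 0.7998 to 0.837 of the 6 others.

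Levels of different genes were set side by side per kilobase of exon, as the mean of all 9 libraries. The median gene of each library, averaged over the libraries, lay at 17.6 CPM per kb for the core and 15.1 CPM per kb for the regulatory particle. Psmb7 was the lowest of the 14 core genes, at 6.20 CPM per kb, while the catalytic Psmb5 and Psmb6 stood at 29.3 and 28. Psmb7 remained lowest per length of its longest transcript, at 7.44 against 29.3 for Psmb5 and 54.3 for Psmb6. Before division by length, Psmb7 lay at 19.6 to 23 CPM, overlapping Psmb5 at 21.8 to 32.4 CPM and below Psmb6 at 45.8 to 65 CPM. The lengths were 3421 (exons) and 2849 bases (longest transcript) for Psmb7, and 899 bases by both measures for Psmb5. Most of the gap to Psmb5 thus came from length. Both measures use annotated lengths, and which transcripts are expressed was not tested. In the regulatory particle the ATPase Psmc5 was highest, at 33.6 CPM per kb of exon, and the scaffold gene Psmd1 lowest, at 4.61, next to the deubiquitinase Psmd14 at 5.06 and Psmd11 at 5.90. Per longest transcript the order differed, with Psmd14 lowest at 9.27, then Psmc6 at 10.3 and Psmd1 at 10.8. The chaperones lay at 1.05 to 2.66 CPM per kb for the base and 0.917 to 5.64 for the core.

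**Figure D4:**
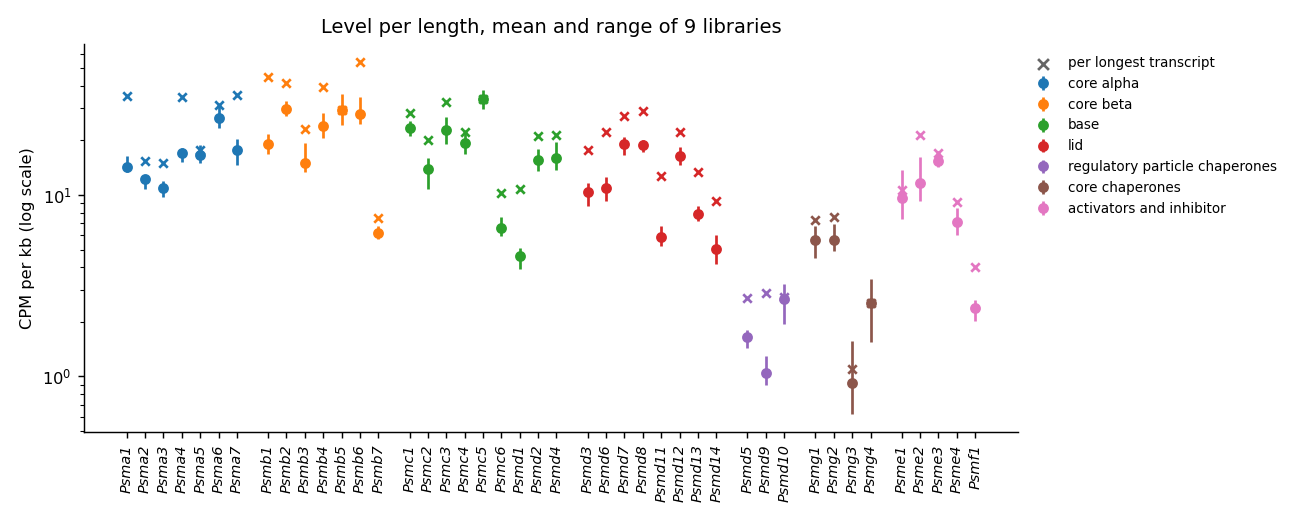
Level of each member in CPM per kb of exon (points, mean of 9 libraries, with the range as a line) and per kb of the longest transcript (crosses), on a log axis and grouped by place in the proteasome. Psmb7, at 6.20 CPM per kb of exon, is the lowest of the core genes, and the chaperones lie below most subunits. The lengths are annotated ones, and which transcripts are expressed was not tested.

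Interferon replaces the 3 catalytic subunits with Psmb8, Psmb9 and Psmb10, which take the places of Psmb5, Psmb6 and Psmb7. Psmb8 over Psmb5 in CPM was 0.220, 0.224 and 0.430 in the 24-month, 0.281, 0.394 and 0.159 in the 12-month and 0.0872, 0.0978 and 0.0919 in the 2-month libraries. Every older library was above the young ones, and 24-month replicate 3 and 12-month replicate 2 were highest. Psmb9 over Psmb6 was 0.120, 0.105 and 0.201 in the 24-month, 0.130, 0.165 and 0.0708 in the 12-month and 0.0447, 0.0497 and 0.0374 in the 2-month libraries, again with every older library above the young ones. Psmb10 over Psmb7 was 0.210, 0.237 and 0.410 in the 24-month, 0.252, 0.291 and 0.254 in the 12-month and 0.159, 0.222 and 0.224 in the 2-month libraries. The 12-month libraries were all above the young ones, while 24-month replicate 1 fell within the young range. With TMM scaling, both parts of the ratios with Psmb5 and Psmb6 differed at 24 against 2 months. With library totals the log2 fold changes of Psmb5 and Psmb6 were close to 0, as given above, and neither was called. Their calls were also lost without 2-month replicate 2 or without any 1 library at 24 months. Psmb8 was called higher at 24 months (log2 fold change 1.34 ± 0.29, SE, adjusted p = 0.0104) and Psmb9 too (log2 fold change 1.37 ± 0.30, SE, adjusted p = 0.00997), while Psmb10 was not (log2 fold change 0.59 ± 0.24, SE, adjusted p = 0.115). Psmb8 stayed called at 24 against 2 months without any 1 library, as did Psmb9. At 12 against 2 months Psmb8 (log2 fold change 1.16 ± 0.29, SE, adjusted p = 0.0316) and Psmb9 (log2 fold change 1.16 ± 0.30, SE, adjusted p = 0.0327) were called, but not without 2-month replicate 1 (adjusted p = 0.0839 and 0.0875), 2 (0.0902 and 0.0701) or 3 (0.101 and 0.113), nor without 12-month replicate 1 (0.0791 and 0.0856) or 2 (0.164 and 0.166). The macrophage, B and T cell marker sums also stood higher at those ages, and their part in these ratios was not tested.

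**Figure D5:**
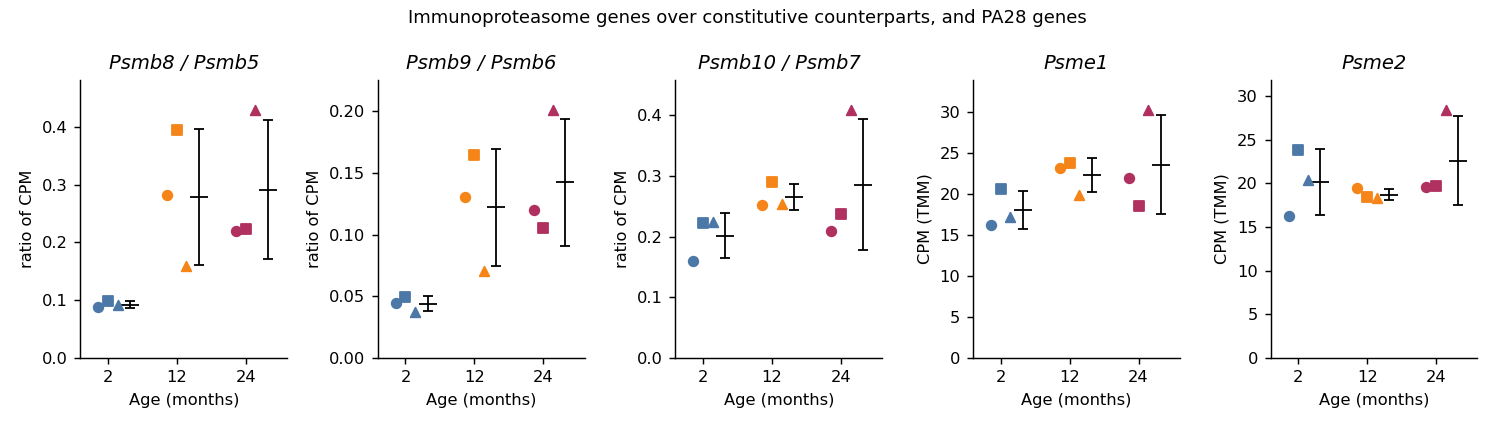
Ratio of CPM of each interferon-induced catalytic gene to its constitutive counterpart, and CPM of the PA28 genes Psme1 and Psme2, in each library at 2, 12 and 24 months; circles, squares and triangles are replicates 1, 2 and 3, and bars are the mean ± SD of 3 libraries. Psmb8 over Psmb5 is 0.159 to 0.430 at 12 and 24 months and 0.0872 to 0.0978 at 2 months.

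Other genes of the pathway were taken as 3 lists, beside the 17.4% of all tested genes that were called in either direction at 24 against 2 months. Of 9 genes for proteins bound to the proteasome 1 was called lower at 24 against 2 months and 0 higher. This was Sem1, a small lid subunit outside the naming pattern, with 28.7, 28.6 and 27.3 CPM at 24 months and 33.7, 36.4 and 36.1 CPM at 2 months. Its ranges were apart, at a log2 fold change of -0.33 ± 0.08 (SE; adjusted p = 0.0191). The adjusted p was 0.0667 without 2-month replicate 2, 0.0712 without 2-month replicate 3 and 0.0736 without 24-month replicate 3. Pomp, which matures the beta rings, stood at a log2 fold change of -0.22 ± 0.09 (SE; adjusted p = 0.126). Of 14 genes for ubiquitin and its delivery to the proteasome 1 was called lower and 0 higher, Rps27a, which encodes ubiquitin fused to a ribosomal protein. It had 128, 139.8 and 119 CPM at 24 months and 179, 244 and 198 CPM at 2 months. All old libraries were below the young ones, at a log2 fold change of -0.68 ± 0.13 (SE; adjusted p = 0.00537), and the call held with any 1 library left out.

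Of 8 regulators 1 was called higher and 1 lower at 24 against 2 months. Nfe2l1 had 55.5, 50.3 and 52.7 CPM at 24 months and 44.3, 39.5 and 44.9 CPM at 2 months. All old libraries were above the young ones, at a log2 fold change of 0.30 ± 0.09 (SE; adjusted p = 0.0325). Mafg, a small Maf partner, had 17.9, 19.5 and 15.6 CPM at 24 months and 20.1, 22.9 and 27.5 CPM at 2 months. All old libraries were below the young ones, at a log2 fold change of -0.41 ± 0.12 (SE; adjusted p = 0.0396). Nfe2l1 lost its call without 2-month replicates 2 or 3 (adjusted p = 0.122 and 0.0685) and without 24-month replicates 1, 2 or 3 (0.0883, 0.0522 and 0.0714), and Mafg without any 1 library but 2-month replicate 1 and 24-month replicate 2 (0.0519 to 0.169). At 12 against 2 months 0 genes of these 3 lists were called, with 2, 2 and 0 at an unadjusted p under 0.05. At 24 against 12 months Rps27a was called lower (log2 fold change -0.53 ± 0.13, SE, adjusted p = 0.0386), but not without any 1 library other than 2-month replicates 1 and 2 (0.0623 to 0.136).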

How the data were processed

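RNA of the lacrimal gland was sequenced in 9 libraries as pairs of 100 bp reads, per the labels' protocols. The submitters' processing notes name STAR, HTSeq, DESeq2, cutadapt and FastQC, and the GRCm38 build. For versions, annotation release and strand setting the sources used here give nothing. The deposited counts are whole reads per gene that the authors did not normalize, and they were used for every test. The deposited log2 values equal log2(count / size factor + 1) in 100% of entries within 1e-06 and served as a check only.

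Symbols, gene types, exon lengths and gene coordinates came from GENCODE M21, which matched 54165 of 54232 IDs. The test was the quasi-likelihood F test of edgeR 4.0.16 (R 4.3.3), after TMM scaling and filterByExpr at a count of at least 10, in 1 model of the 3 ages. The filter kept 14944 genes, the common coefficient of variation was 21.2%, and 6 residual degrees of freedom remained. The Benjamini-Hochberg adjustment ran over every tested gene, with calls under 0.05. Summaries used Python 3.11.15, numpy 2.4.6, pandas 2.3.3 and scipy 1.17.1, and figures matplotlib 3.10.9. The procedure was tested on simulated data. For 24 against 2 months it recovered 46% of genes set to differ by 1 on the log2 scale and 80% of those by 2. Of 139 calls in each comparison, 13 were false for 24 against 2, 11 for 12 against 2 and 1 for 24 against 12 months. Differences as small as those of the subunit genes were not simulated. At 40516863 to 42573877 counts per library, genes of a few counts are known only within wide counting limits.

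The members, the lists of other genes and the rule for named genes were chosen with earlier results of these data known. Named genes were members called in a comparison, Psmb5 to Psmb7, the highest and lowest log2 fold change of each group, the 4 members that stand apart, up to 4 called genes of each other list, and Psmb8, Psmb9, Psmb10, Nfe2l1 and Pomp. Psma3, Psma4, Psma6, Psmb2, Psmc2, Psmc3, Psmc5, Psmc6, Psmd1, Psmd2, Psmd3, Psmd10, Psmd11, Psmd12, Psmd13, Psme2, Psme3, Psmg1, Psmg2 and Bhlha15 were named after their values were seen. Paaf1 was not matched in the table, so the list of bound proteins held 9 genes. Alternatives were RLE scaling, library totals, TMM without the 10 most abundant genes, 2 other filters on low counts, DESeq2 1.42.0, limma 3.58.1 voom with sample weights, the replicate number as a block, the 6 compared libraries alone, and libraries left out.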

Additional observations from a re-analysis of the deposited data

How the results depend on the processing

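The 6 members called lower at 24 against 2 months became 0 with library totals, 2 with no filter on low counts, 2 with only the 6 libraries compared, 0 without the 3 libraries highest in salivary gland transcripts (2-month replicate 2, at 65.4 CPM, was kept), 2 without the 2 libraries with skeletal muscle transcripts, and 0 to 7 with 1 library left out. The 0 called higher became 6, 2, 0, 0, 1 and 0 to 1 under the same settings. The extra genes were Psma8 and Psme1 with no filter, Psma8 without the muscle libraries, Psmd14 without 2-month replicate 1 and Psme1 without 24-month replicate 2. Psma8 failed the main filter and had 0 counts in every 2-month library. It was tested in these settings only through its 11, 9 and 3 counts at 24 months, so its calls lend no support to a difference. Leaving out the muscle libraries kept only replicate 2 at 12 months. Over all tested genes, the 1130 called lower became 191, 1142, 889, 142, 857 and 469 to 1115 under these settings in the same order. The 1467 called higher became 2626, 2006, 1324, 484, 1386 and 691 to 1623. The 1 member called lower at 12 against 2 months became 0 with library totals and without the salivary or the muscle libraries, 4 in DESeq2, 3 in limma voom, and 0 to 2 with 1 library left out. Over all tested genes, the 377 called lower became 80, 30, 105, 703, 452 and 103 to 417 in that order. The 0 called higher at 24 against 12 months became 1 in DESeq2, where 737 of all tested genes were called higher.

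Deviations from the group means correlated at -0.15 to 0.06 between same-numbered libraries and at -0.19 to 0.23 between differently numbered ones. Whether a number marks a shared day or batch was not tested. With the replicate number as a block 1 member was called lower at 24 against 2 months, Psmb6.

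The log2 ratio of core to regulatory particle was -0.13 at 24 against 2 months, -0.18 without the base genes and -0.087 without the lid genes, and at 12 against 2 months -0.014, -0.057 without the base genes and 0.017 without the lid genes. Median levels became 32.4 CPM per kb for core and 21 for regulatory particle genes per longest transcript. With library totals, which move the median of all genes to 0.31, log2 fold changes at 24 against 2 months turned to 0.24 for Psma5, 0.058 for Psma7, 0.016 for Psmb1, 0.0076 for Psmb4, 0.064 for Psmd4, 0.16 for Psmd6, 0.16 for Psmd9, 0.14 for Psmf1 and 0.089 for Pomp, and at 12 against 2 months to 0.033 for Psmb6 and 0.25 for Psmb7. With 1 library left out, Psma5 ranged from -0.097 to 0.0063 (above 0 without 2-month replicate 2) and Psmg4 from -0.0050 to 0.23 (below 0 without 2-month replicate 3). Psmb7 at 12 against 2 months ranged from -0.10 to 0.012 (2-month replicate 1), and Psmb6 at 24 against 12 months from -0.095 to 0.037 (12-month replicate 3), with 0.028 without the muscle libraries. Of 718 values of named genes under the alternatives, 566 kept their direction and side of the threshold, 127 lost and 9 gained a call, and 16 changed sign; the cause was not tested.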
